A study of Homo sapiens with 12 samples.

Results

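The mRNAs of 9 genes that encode corepressors and coactivators of the PPAR nuclear receptors were measured in A375 cells treated with a PPARγ agonist, a PPARγ antagonist or both. The genes were chosen by symbol: the corepressor subunits *NCOR1*, *HDAC3* and *TBL1XR1*, the p160 coactivators *NCOA1*, *NCOA2* and *NCOA3*, the PGC-1 coactivators *PPARGC1A* and *PPARGC1B*, and the Mediator subunit *MED1*. All 9 were among the 23705 genes of the count table and among the 13522 genes with enough counts for testing. A375 is an established human metastatic melanoma line, so every library comes from 1 line. The cells received DMSO as vehicle, the agonist rosiglitazone (RGZ) at 5 μM, the antagonist T0070907 at 2 μM, or both compounds together at these doses (the combination) for 24 h. Each of the 4 conditions had 3 libraries of total RNA, 1 from each of 3 independent experiments, after RNA of technical replicates had been pooled within an experiment.

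PPARγ binds DNA with a retinoid X receptor. Without a ligand, nuclear receptors of this kind can hold a corepressor complex in which NCoR1 is the scaffold, HDAC3 removes acetyl groups from histones, and TBL1XR1 helps to exchange corepressors for coactivators. An agonist reshapes the receptor's surface so that coactivators bind through LXXLL motifs, called nuclear receptor boxes, where L is leucine and X any amino acid. The p160 proteins then recruit histone acetyltransferases, MED1 connects the receptor to Mediator and RNA polymerase II, and the PGC-1 proteins coactivate genes of oxidative metabolism.

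The coding sequences of 10 LXXLL matches are shown because the pattern is the one through which coactivators contact a nuclear receptor. They are the 3 central matches each of *NCOA1* and *NCOA3*, the single match of *PPARGC1A*, the first of *PPARGC1B*, and both of *MED1*, while those of *NCOA2* and the remaining matches are not shown. They were read from the longest complete coding sequence of each gene in GENCODE release 29 (build GRCh38, 5′ to 3′ on the gene's strand), with the 15 bases of the motif in capitals and 6 bases on each side in lower case. Residues are numbered from the first methionine, and coordinates are those of the capitals. Each motif lies within a single coding exon, and the central boxes of *NCOA1* share exon 13, as those of *NCOA3* share exon 12.
NCOA1, residues 633 to 637, chr2:24707367-24707381, plus strand: cacaaaCTAGTGCAGCTTTTGacaaca
NCOA1, residues 690 to 694, chr2:24707538-24707552, plus strand: aaaattCTACACCGGCTCTTAcaggag
NCOA1, residues 749 to 753, chr2:24707715-24707729, plus strand: cagctcCTACGCTATCTTTTAgataaa
NCOA3, residues 621 to 625, chr20:47636247-47636261, plus strand: aaaaaaTTACTGCAGTTACTTacctgt
NCOA3, residues 685 to 689, chr20:47636439-47636453, plus strand: cggattTTGCACAAGTTGCTGcagaat
NCOA3, residues 738 to 742, chr20:47636598-47636612, plus strand: gcacttCTTAGATACCTGCTGgacagg
PPARGC1A, residues 144 to 148, chr4:23829571-23829585, minus strand: tctctaCTTAAGAAGCTCTTActggca
PPARGC1B, residues 156 to 160, chr5:149830767-149830781, plus strand: tcactgCTGCAGAAGCTCCTCctggcc
MED1, residues 604 to 608, chr17:39410397-39410411, minus strand: ccaattCTTACCAGTTTGTTGcaaatc
MED1, residues 645 to 649, chr17:39410274-39410288, minus strand: ccgatgCTCATGAACCTTCTTaaagat

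Over whole proteins, the LXXLL pattern occurred 7 times in NCOA1, 4 times in NCOA2, 5 times in NCOA3, 2 times in PPARGC1B, 2 times in MED1, and 1 time each in PPARGC1A and NCOR1. It was not found in HDAC3 or TBL1XR1. The pattern is common: 45.7% of 18957 genes with a coding sequence held it at least once. At least 4 matches, the number that all the p160 proteins reached, were found in 5.97% of these genes and in 14.3% of those encoding 700 or more residues. The corepressor pattern, leucine or isoleucine, any pair of residues, valine or isoleucine, then isoleucine, occurred 5 times in NCOR1, 1 time each in TBL1XR1 and MED1, and in none of the others. The share of all genes that hold this pattern is not reported here. A match is a description of the sequence and not a binding site. In the RefSeq promoter windows of 300 bases, found for 8 members and not for *NCOA2*, the nuclear receptor half-site AGGTCA was in 0 of 8 on either strand, against 13.8% of all 35116 promoters.

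Library totals ranged from 8319455 to 11375227 counts, and 3 counts, taken as the detection floor, corresponded to 0.258 to 0.371 CPM, the count of a gene relative to its scaled library total. Of 8 melanocyte lineage markers, *MITF*, *SOX10*, *PMEL* and *S100B* were above the floor in every vehicle library, and *TYR* had no count in any of them. The summed level of these 8 markers ranged from 281 to 498 CPM in vehicle and from 229 to 422 with RGZ. In the blocked fit, *MITF* fell by 0.34 and *S100B* by 1.02 with RGZ, and the part of this in the members' levels was not tested. Summed levels in vehicle were 15.2 to 35.8 CPM for 6 fibroblast markers, of which 4 were above the floor in every vehicle library. They were 87.9 to 114 CPM for 6 keratinocyte markers and 47.8 to 80.2 CPM for 6 leukocyte markers, with 3 of each above the floor in every vehicle library. With RGZ these sums were 11.4 to 22.1, 85.9 to 99.1 and 59.4 to 104 CPM for the fibroblast, keratinocyte and leukocyte markers, and their part in the members' levels was not tested. The keratinocyte marker *KRT1* and the leukocyte marker *CD3E* had no count in vehicle and the leukocyte marker *PTPRC* had 1 count in each vehicle library, while *CD68*, which leukocytes and many other cells express, had 35.4 to 73.7 CPM. The lipid droplet gene *PLIN2*, a target of PPARγ, rose by 2.62 on the log2 scale with RGZ (adjusted p = 0.000167 by the quasi-likelihood test of edgeR, adjusted by the Benjamini-Hochberg method). In bulk RNA, fewer cells with an mRNA and less mRNA per cell cannot be told apart.

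In vehicle-treated cells, the corepressor members and *MED1* had higher levels than the p160 and PGC-1 coactivators, which spanned a wide range. *NCOR1*, *HDAC3*, *TBL1XR1* and *MED1* each had a level between 87.5 and 154 CPM in every vehicle library, after scaling between libraries by edgeR's TMM method. *NCOA3* had 46.5 ± 1.24 CPM, *NCOA1* 17.3 ± 1.34, *PPARGC1B* 11.4 ± 0.933 and *NCOA2* 9.67 ± 1.4 CPM (mean ± SD, n = 3 each). *PPARGC1A*, the founding member of the PGC-1 family, was at the edge of detection, with 7, 14 and 6 counts in the vehicle libraries.

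Per kb of the longest GENCODE transcript, the order in vehicle was *HDAC3*, *MED1*, *TBL1XR1*, *NCOR1*, *NCOA3*, *NCOA1*, *NCOA2*, *PPARGC1B* and *PPARGC1A*. The level ran from 54.6 ± 0.796 CPM per kb for *HDAC3* to 0.167 ± 0.0839 for *PPARGC1A* (SD, n = 3). *MED1* had 23.4 ± 3.35, *TBL1XR1* 11.4 ± 0.36, *NCOR1* 10.8 ± 1.03 and *NCOA3* 5.86 ± 0.156 CPM per kb. Among neighbours in this order, the vehicle libraries of *TBL1XR1* and *NCOR1* overlapped, as did those of *NCOA2* and *PPARGC1B*. The remaining neighbours did not overlap, and their mean levels differed between 1.85-fold and 6.47-fold. On the per-kb scale, *HDAC3* stood at or above 89.9% of the tested genes whose length was known, *MED1* at or above 76.2%, *TBL1XR1* at or above 59.4%, *NCOR1* at or above 57.9%, and *PPARGC1A* at or above 0.955%. Within the p160 family, *NCOA3* made up 62.8% ± 2.49 of the summed per-kb level in vehicle, *NCOA1* 24.9% ± 1.08 and *NCOA2* 12.2% ± 1.42 (SD, n = 3).

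**Figure D1:**
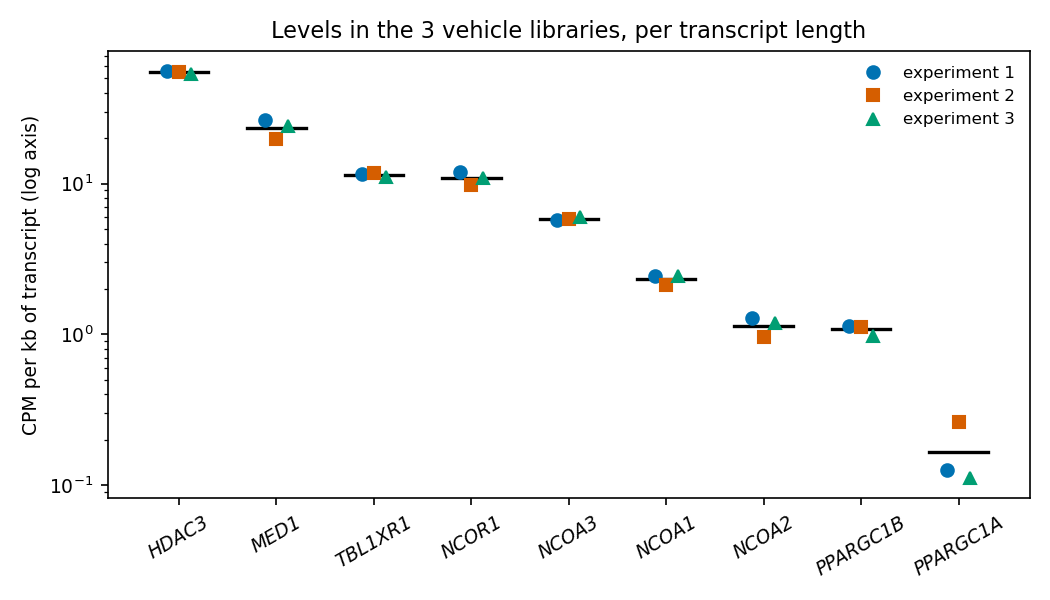
Levels of the 9 genes in the 3 vehicle libraries, in CPM per kb of the longest transcript on a log axis. Symbols are the libraries of experiments 1 to 3 and bars their mean. *HDAC3* stood highest at 54.6 and *PPARGC1A* lowest at 0.167 CPM per kb, and only *TBL1XR1* with *NCOR1* and *NCOA2* with *PPARGC1B* overlapped among neighbours.

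For changes with treatment, the 13522 genes were fitted in edgeR with the 4 conditions as groups, and again with the experiment as a further term, called the replicate block. A gene was called at an adjusted p under 0.05 over all tested genes. Without the block, no member was called in any comparison by edgeR or DESeq2. DESeq2 gave no adjusted p to some members, which it therefore could not call. For the combination against T0070907 these were *NCOA1*, *NCOA2*, *NCOA3*, *PPARGC1A* and *PPARGC1B*. For T0070907 against vehicle and for the combination against RGZ it was *PPARGC1A*. With the block, members were called in both comparisons of the combination with a single compound. All of these calls were toward lower levels in the combination.

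**Figure D2:**
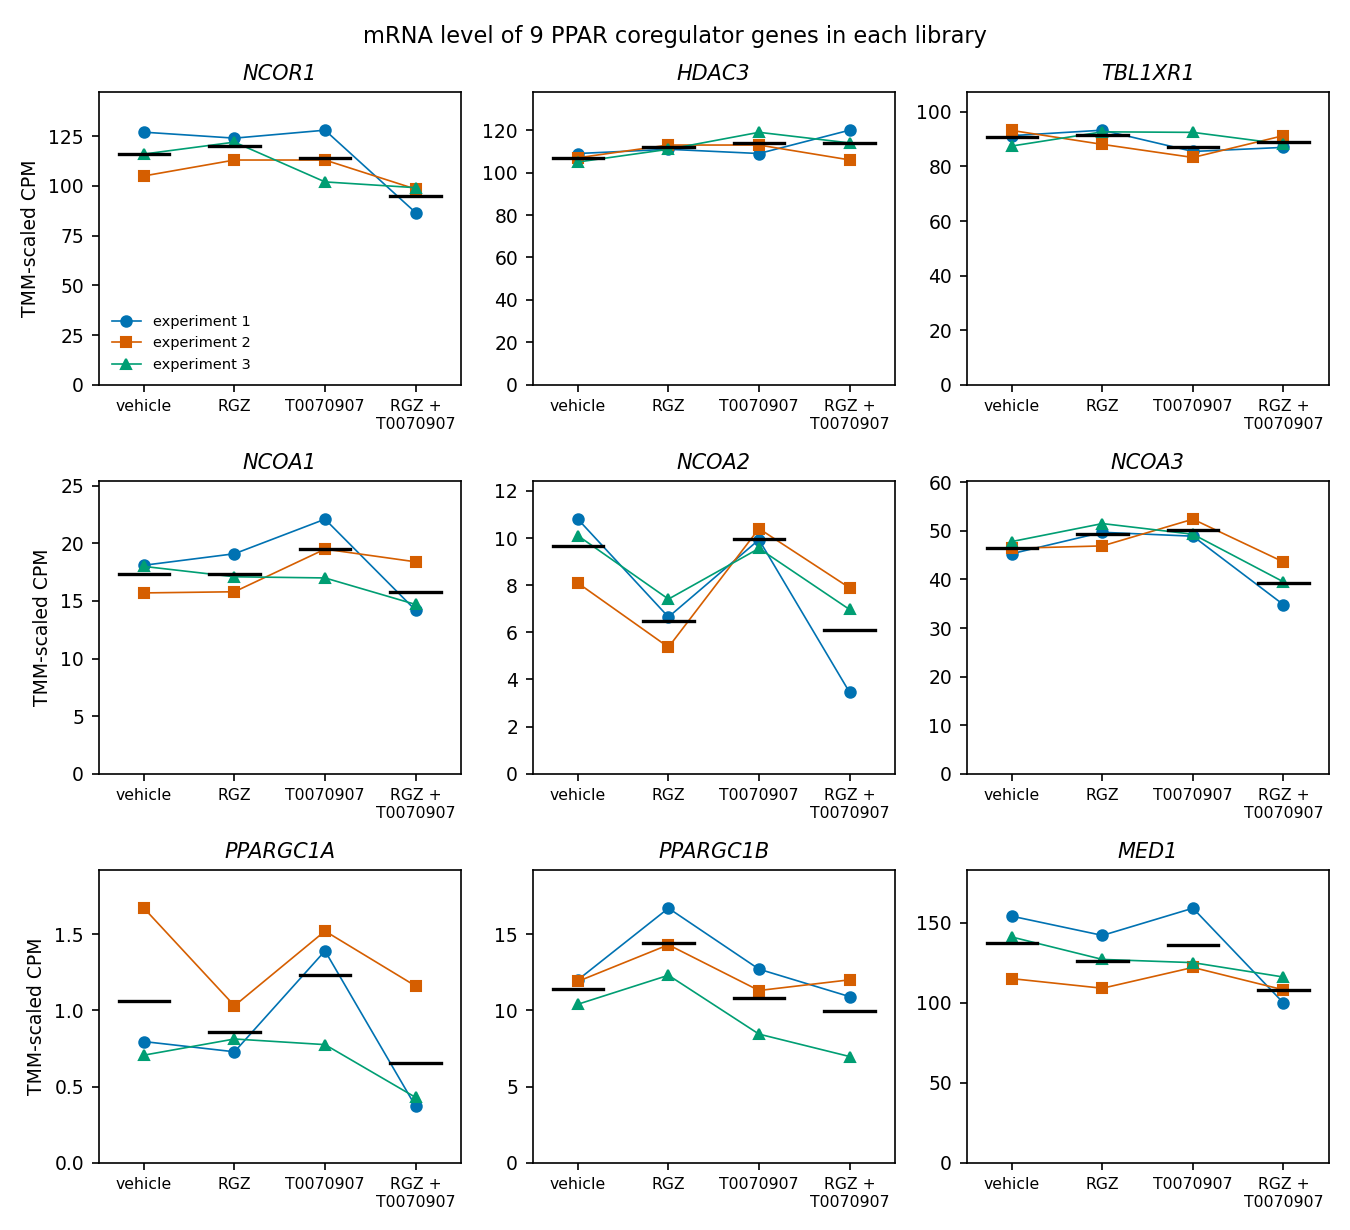
TMM-scaled CPM of each gene in the 12 libraries. Each line and symbol is 1 experiment, black bars are the means of 3 libraries, and all axes start at 0. *HDAC3* and *TBL1XR1* stayed within narrow ranges, *NCOA3* was lowest in the combination in every experiment, and *NCOA2* was lower with RGZ than with vehicle in every experiment.

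RGZ against vehicle asked which coregulator mRNAs moved with the agonist alone. The corepressor members were close to their vehicle levels. *NCOR1* had 127, 105 and 116 CPM in the vehicle libraries of experiments 1 to 3 and 124, 113 and 122 with RGZ. *HDAC3* had 109, 107 and 105 CPM with vehicle and 111, 113 and 111 with RGZ. The difference for *NCOR1* was 0.05 on the log2 scale (95% interval -0.12 to 0.22 with the block), and for *HDAC3* 0.06 (-0.07 to 0.19). *TBL1XR1* had 91.3, 93.2 and 87.5 CPM with vehicle and 93.3, 88.1 and 92.7 with RGZ, and differed by 0.01 (-0.12 to 0.14). With the blocked edgeR fit corrected for transcript length, the differences were 0.15 for *NCOR1* (adjusted p = 0.091), 0.04 for *HDAC3* and 0.08 for *TBL1XR1*.

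The largest differences of members with RGZ were in *NCOA2* and *PPARGC1B*, in opposite directions. *NCOA2*, the p160 protein also called GRIP1 or TIF2, had 10.8, 8.09 and 10.1 CPM with vehicle and 6.65, 5.37 and 7.41 with RGZ. It was lower in all 3 experiments and the groups did not overlap, with a log2 fold change of -0.57 (SE 0.25, adjusted p = 0.429, edgeR), or -0.57 (SE 0.20, adjusted p = 0.0933) with the block. Its share of the summed p160 level was 8.19% ± 0.877 with RGZ (SD, n = 3), against the 12.2% with vehicle. *PPARGC1B*, which encodes PGC-1β, had 12, 11.9 and 10.4 CPM with vehicle and 16.7, 14.3 and 12.3 with RGZ. It was higher in all 3 experiments, and the lowest RGZ library was just above the highest vehicle library. The log2 fold change was 0.34 (SE 0.12, adjusted p = 0.103 with the block, edgeR).

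In this comparison edgeR called 0 of 9 members, against 1.24% of all tested genes, and with the block 0 of 9, against 9.3% of all genes. At an unadjusted p under 0.05 there was 1 member, against 1421 of all 13522 genes, and with the block there were 2, against 2982. *NCOA2* was called when the combination library of experiment 1 was left out of the blocked fit (-0.57, adjusted p = 0.0075), and *PPARGC1B* was called when the blocked fit was corrected for transcript length (0.44, adjusted p = 0.015). These fits called 2044 and 1646 genes in all, against 1258 in the blocked fit. The other members were *NCOA1*, *NCOA3*, *PPARGC1A* and *MED1*, with log2 fold changes from -0.28 to 0.09 with the block. *PPARGC1A* had 7, 9 and 8 counts with RGZ, and its interval from -1.07 to 0.51 leaves changes in either direction undetectable at this depth.

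T0070907 against vehicle asked the same of the antagonist alone. edgeR called 0 of 9 members with or without the block, and 0 had an unadjusted p under 0.05. The background was 0.0074% of all tested genes called without the block and 0.91% with it, and 419 and 1328 genes at an unadjusted p under 0.05. The largest difference with an SE below 0.2 was in *NCOA1*, or SRC-1, a p160 coactivator with an acetyltransferase domain. It had 18.1, 15.7 and 18 CPM with vehicle and 22.1, 19.5 and 17 with T0070907. It was higher in 2 of 3 experiments, and the log2 fold change was 0.17 (95% interval -0.08 to 0.42 with the block). *NCOR1* differed by -0.03 (-0.2 to 0.14), *NCOA3* by 0.11 (-0.05 to 0.27) and *MED1* by -0.01 (-0.19 to 0.17).

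**Figure D3:**
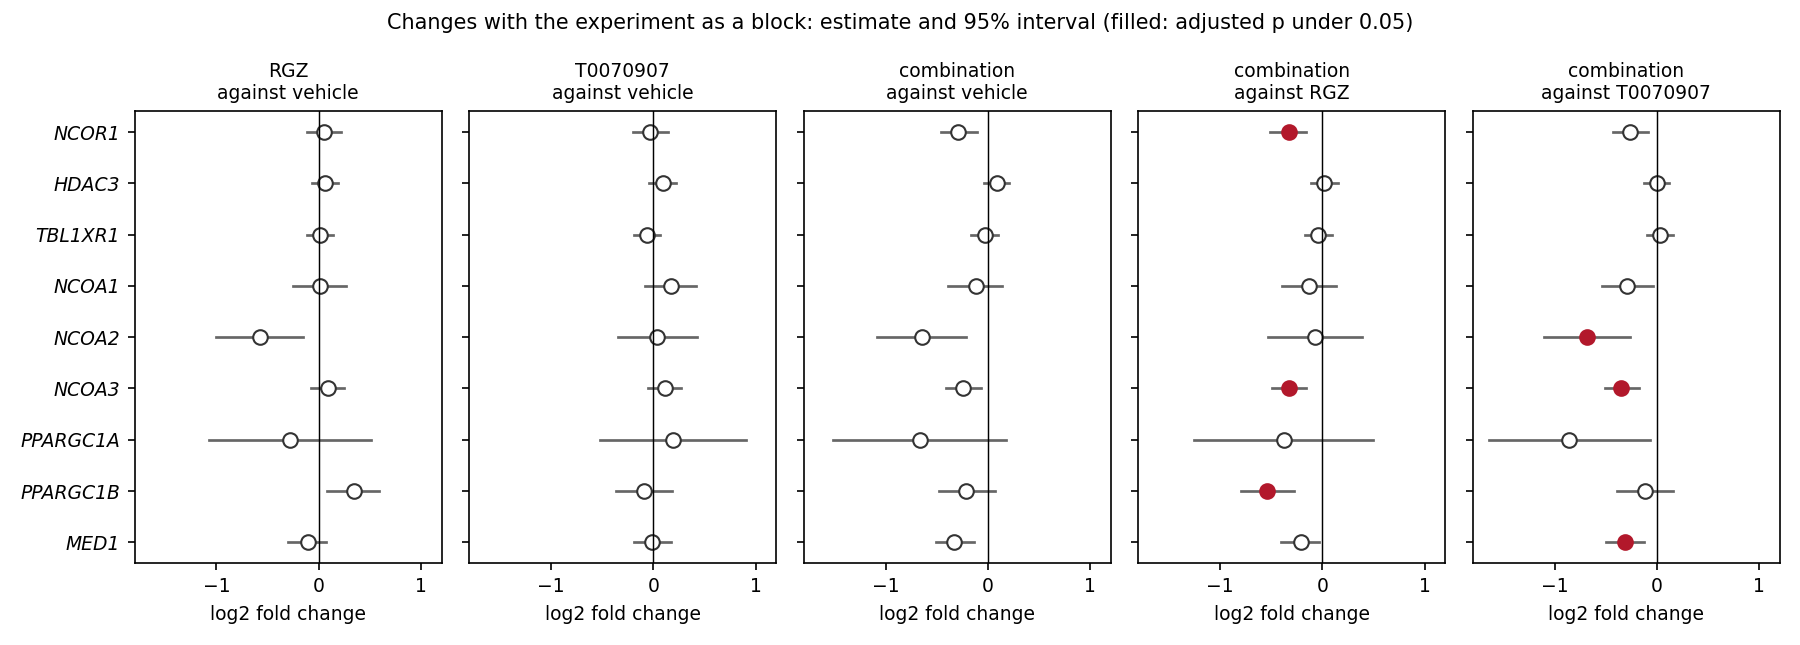
Log2 fold changes of the 9 genes in 5 comparisons, from the edgeR fit with the experiment as a block. Points are estimates, lines are 95% intervals, and filled red points have an adjusted p under 0.05. The called genes are *NCOR1*, *NCOA3* and *PPARGC1B* for the combination against RGZ and *NCOA2*, *NCOA3* and *MED1* for the combination against T0070907, all below 0.

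The combination against vehicle asked what differed once both compounds were present. 8 of 9 members had a negative log2 fold change, and the exception was *HDAC3* at 0.09. *NCOR1* had 86.6, 98.4 and 99.1 CPM in the combination, all below the lowest vehicle library. *MED1* had 154, 115 and 141 CPM with vehicle and 99.8, 108 and 116 in the combination, and the groups overlapped. With the block, *MED1* differed by -0.33 (SE 0.09, adjusted p = 0.101, edgeR) and *NCOR1* by -0.29 (SE 0.08, adjusted p = 0.103). *NCOA2* differed by -0.64 (adjusted p = 0.113) and *NCOA3* by -0.24 (adjusted p = 0.121). The difference in *NCOA2* was -1.63, -0.04 and -0.54 in experiments 1 to 3, and -0.35 without the combination library of experiment 1. Without that library *MED1* differed by -0.18 and *NCOR1* by -0.17. With the blocked fit corrected for transcript length, *NCOR1* differed by -0.12 and *NCOA3* by -0.11, *TBL1XR1* turned to 0.11 and *HDAC3* to -0.01, and *NCOA1* was at 0. edgeR called 0 of 9 members with or without the block, as it called 0% of all tested genes in both fits, with 4 members at an unadjusted p under 0.05 in each. Over all genes, 1438 had an unadjusted p under 0.05 without the block and 2868 with it. DESeq2 called 0 members without the block and *MED1* with it. In its fit with the block, *NCOA1*, *NCOA2*, *PPARGC1A* and *PPARGC1B* were given no adjusted p and could not be called. The blocked edgeR fit without experiment 2 called 2641 genes, among them *MED1* (-0.45, adjusted p = 0.00146), *NCOA2* (-0.99, adjusted p = 0.00239), *NCOR1* (-0.39, adjusted p = 0.00393) and *NCOA3* (-0.33, adjusted p = 0.0178). The fits without experiment 1 and without experiment 3 called 0 genes.

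The combination against RGZ asked what the antagonist changed in agonist-treated cells. With the block, edgeR called 3 of 9 members, against 11.4% of all tested genes, and all 3 were lower with T0070907 added. Without the block it called 0 of 9, against 1.24% of all genes. At an unadjusted p under 0.05 there were then 3 members, against 1773 of all 13522 genes. The 3 genes encode a corepressor, a p160 coactivator and a PGC-1 coactivator.

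*PPARGC1B* had 16.7, 14.3 and 12.3 CPM with RGZ and 10.9, 12 and 6.97 in the combination. It was lower in every experiment, and no combination library reached the lowest RGZ library. It fell by 0.54 on the log2 scale (SE 0.12, adjusted p = 0.00776 with the block, edgeR), 1.46-fold lower, while without the block the adjusted p was 0.305. *NCOA3*, also called SRC-3 or AIB1, had 49.7, 46.9 and 51.5 CPM with RGZ and 34.8, 43.6 and 39.5 in the combination. The groups did not overlap, and *NCOA3* fell by 0.33 (SE 0.08, adjusted p = 0.0106 with the block and 0.0956 without it, edgeR). *NCOR1* had 124, 113 and 122 CPM with RGZ, all above its 3 combination libraries. It fell by 0.33 with the block (SE 0.08, adjusted p = 0.0121, edgeR), and without the block the adjusted p was 0.144.

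The other 6 members were not called. *MED1* differed by -0.21 (SE 0.09, adjusted p = 0.137 with the block), *NCOA1* by -0.13 and *NCOA2* by -0.07, and *NCOA2* had opposite signs between experiments, -0.93 in experiment 1 and 0.55 in experiment 2. The difference in *MED1* was -0.51, -0.01 and -0.13 in experiments 1 to 3. Without the combination library of experiment 1 it was -0.06 for *MED1* and 0 for *NCOA1*. *HDAC3* differed by 0.02 (95% interval -0.11 to 0.15) and *TBL1XR1* by -0.04 (-0.17 to 0.09). The same 3 members were called when the blocked fit was corrected for transcript length or for GC content, and without the combination library of experiment 1. Of the blocked fits that left out a whole experiment, those without experiment 1 and without experiment 3 called 0 members. *NCOR1*, *NCOA3* and *PPARGC1B* differed by -0.25, -0.24 and -0.50 without experiment 1, and by -0.35, -0.30 and -0.43 without experiment 3. The fit without experiment 2 called these 3 and *MED1* (-0.32, adjusted p = 0.017), among 2226 genes in all against 1545 with every experiment.

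The combination against T0070907 asked what the agonist changed with the antagonist present. With the block, edgeR called *NCOA2*, *NCOA3* and *MED1*, 3 of 9 members against 8.76% of all tested genes, all lower with RGZ added. Without the block it called 0 of 9, against 0.037% of all genes. At an unadjusted p under 0.05 there were then 5 members, against 2028 of all 13522 genes. *NCOA3* was thus called in both comparisons of the combination with a single compound. These comparisons share the combination libraries.

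*NCOA2* had 9.93, 10.4 and 9.56 CPM with T0070907 and 3.46, 7.89 and 6.97 in the combination, and the groups did not overlap. It fell by 0.68 (SE 0.20, adjusted p = 0.0431 with the block, edgeR), with a difference of -1.51 in experiment 1 against -0.39 and -0.45 in the others. *NCOA3* had 48.9, 52.4 and 49.3 CPM with T0070907, all above its combination libraries. It fell by 0.35 (SE 0.08, adjusted p = 0.0147 with the block and 0.224 without it, edgeR), and was lower in all 3 experiments. *MED1* had 159, 122 and 125 CPM with T0070907, likewise all above the combination. It fell by 0.31 (SE 0.09, adjusted p = 0.0359 with the block and 0.29 without it, edgeR). By experiment the difference was -0.67, -0.18 and -0.11, and without the combination library of experiment 1 it was -0.17 (adjusted p = 0.126).

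*NCOR1* differed by -0.26 (adjusted p = 0.0549 with the block), *NCOA1* by -0.29 (adjusted p = 0.124) and *PPARGC1A* by -0.86 (95% interval -1.64 to -0.07, adjusted p = 0.146). *PPARGC1A* had 12, 17 and 9 counts with T0070907 and 3, 11 and 4 in the combination, close to the detection floor. Without the combination library of experiment 1, *NCOA3* was the only member called (-0.28, adjusted p = 0.0352). In that fit *NCOA2* differed by -0.39, *NCOA1* by -0.16 and *NCOR1* by -0.14. The blocked fits without experiment 1 and without experiment 3 called 0 members. *NCOA2*, *NCOA3* and *MED1* differed by -0.42, -0.29 and -0.15 without experiment 1, and by -0.81, -0.37 and -0.42 without experiment 3. The fit without experiment 2 called 5, with *NCOR1* (-0.29, adjusted p = 0.0256) and *NCOA1* (-0.42, adjusted p = 0.0357) in addition. That fit called 2206 genes in all, against 1185 with every experiment.

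The interaction of both compounds tests whether the difference made by RGZ was the same with and without T0070907. edgeR called 0 of 9 members, with 2 at an unadjusted p under 0.05 without the block and 3 with it. The background was 0% of all tested genes without the block, where 406 had an unadjusted p under 0.05, and 0.281% with it, where 1324 did. The member with the smallest p was *NCOA3*, whose log2 interaction was -0.44 (SE 0.11, adjusted p = 0.126 with the block, edgeR) and negative in all 3 experiments. DESeq2 called 0 members in either fit, with no adjusted p for *PPARGC1A* in the fit with the block.

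The members that fell in the combination have long transcripts, and genes with long transcripts had lower medians in the same comparisons. The longest transcript of *NCOR1* is 10.7 kb and that of *PPARGC1B* 10.6 kb, and *NCOA1*, *NCOA2*, *NCOA3*, *TBL1XR1* and *PPARGC1A* also fell in the longest of 5 equal classes of transcript length. *MED1*, at 5.84 kb, was in the next class and *HDAC3*, at 1.96 kb, in the shortest. For the combination against T0070907, the median log2 fold change of all genes ran from 0.143 in the shortest class to -0.147 in the longest. In the longest class 13.3% of genes were called lower with the block and 1.65% higher. For the combination against RGZ, the medians ran from 0.093 to -0.071, with 9.7% of the longest class called lower. For RGZ against vehicle they ran from 0.056 to -0.067, and for the combination against vehicle from 0.146 to -0.141. For the antagonist alone the medians of these classes were -0.002 and 0.002. The part of transcript length in the members' changes was not tested beyond the correction that follows.

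With the transcript length trend of each library removed, *NCOR1* fell by 0.27 (adjusted p = 0.00234), *NCOA3* by 0.27 (adjusted p = 0.00714) and *PPARGC1B* by 0.47 (adjusted p = 0.00916) for the combination against RGZ, in edgeR with the block. For the combination against T0070907 the length-corrected log2 fold changes were -0.22 for *MED1* (adjusted p = 0.0469), -0.21 for *NCOA3* (adjusted p = 0.053) and -0.53 for *NCOA2* (adjusted p = 0.0597). So 3 of 3 calls remained in the comparison with RGZ and 1 of 3 in that with T0070907. Over all genes, the correction raised the number called from 1545 to 1953 in the comparison with RGZ. In that with T0070907 it lowered the number from 1185 to 1006. In the comparison with T0070907, *NCOR1* moved from -0.26 to -0.08 (adjusted p = 0.449), *NCOA1* from -0.29 to -0.16 (adjusted p = 0.375) and *TBL1XR1* from 0.03 to 0.17 (adjusted p = 0.103).

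**Figure D4:**
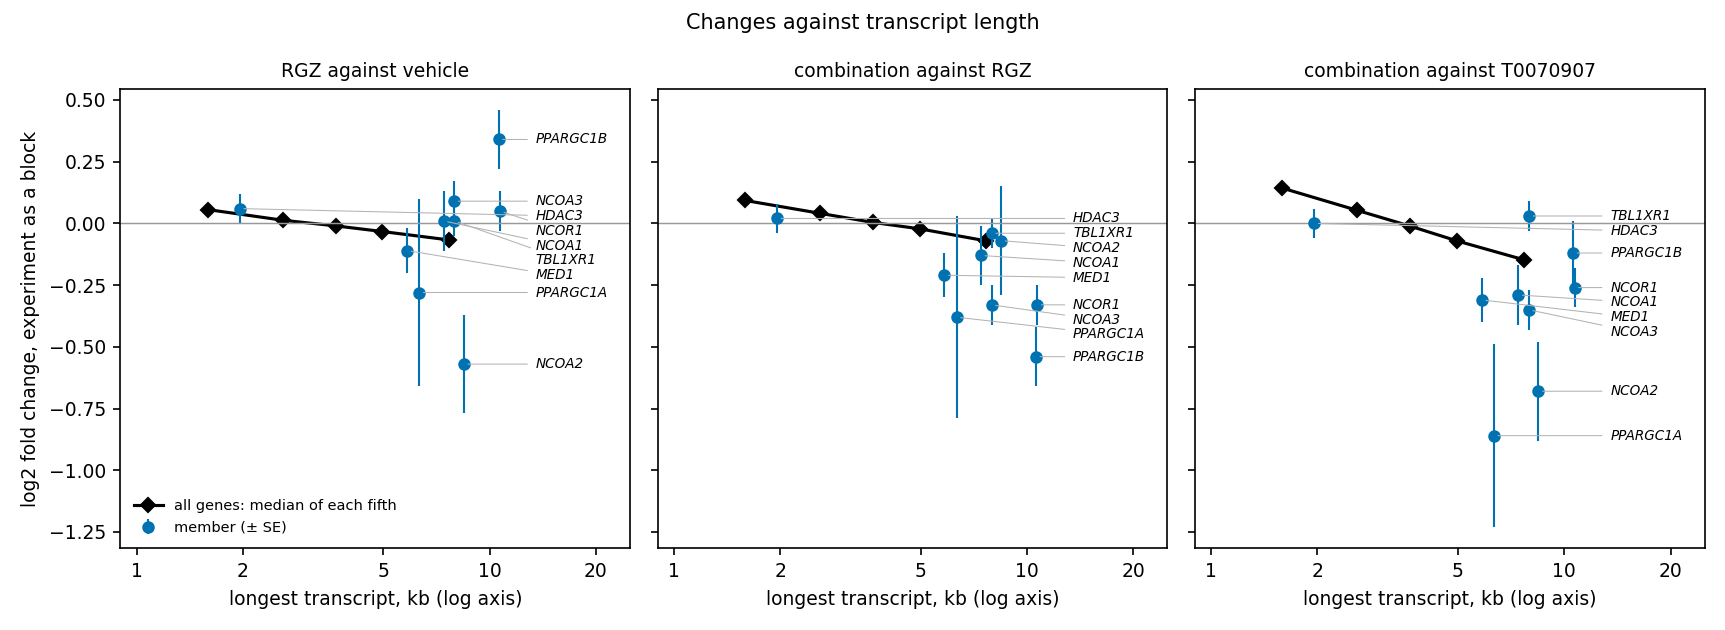
Log2 fold changes from the edgeR fit with the experiment as a block (vertical axis) against the length of the longest transcript in kb (log axis), for 3 comparisons. Blue points are the 9 genes with their SE and black diamonds the medians of all tested genes in 5 equal length classes. For the combination against T0070907 the medians slope from 0.143 to -0.147, and *NCOA2* and *NCOA3* lie below the line while *TBL1XR1* lies above it.

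Levels also differed between the 3 experiments. In the blocked model, *PPARGC1B* was called for the experiment (0.47 lower in experiment 3 than in experiment 1 on the log2 scale, adjusted p = 0.00656, edgeR), and so was *MED1* (0.27 lower in experiment 2, adjusted p = 0.0288). This is 2 of 9 members against 30.5% of all tested genes. *PPARGC1A* was higher by 0.70 in experiment 2 (adjusted p = 0.0531). The remaining members differed between experiments by at most 0.14 on the log2 scale.

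Over the 12 libraries, with the mean of each experiment subtracted, the log2 levels of several members varied together. Pearson's r was 0.907 for *NCOA2* with *MED1*, 0.893 for *NCOR1* with *MED1* and 0.872 for *NCOR1* with *NCOA3*. *HDAC3* ran the other way, with r of -0.682 against *MED1* and -0.601 against *NCOR1*, and *TBL1XR1* had r between -0.178 and 0.371 with every other member. These are descriptions over 12 libraries that share experiments, treatments and the trend with transcript length. The genes most like each member by this measure included *USP24* (r = 0.987) and *STT3B* (0.985) for *NCOR1*, *ARFGEF2* (0.991) and *YAP1* (0.988) for *NCOA2*, *USP36* (0.982) and *SLC41A1* (0.967) for *NCOA3*, and *PDPR* (0.991) and *WNK1* (0.988) for *MED1*. For *NCOA1* they were *RBBP6* (0.951) and *NOTCH3* (0.95), and for *HDAC3* *IGFBP7* (0.932) and *RITA1* (0.922). For *TBL1XR1* they were *VAMP3* (0.926) and *DYNC1I2* (0.877), for *PPARGC1B* *PLEKHB2* (0.947) and *RAP1GAP* (0.932), and for *PPARGC1A* *ARMCX4* (0.955) and *EXOC7* (0.949).

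The partners of the members were drawn from 5 lists of 93 coregulator genes by role, of which 91 were tested. With RGZ, 11 of the 91 were called with the block, 7 higher and 4 lower, and 2 without it, the estrogen-related receptor *ESRRA*, a partner of PGC-1, and the acetyltransferase *KAT2B*. Over all tested genes 9.3% were called with the block and 1.24% without it. Leaving out any 1 library of these conditions from the unblocked fit left 1 call (*ESRRA*) or 0. The median log2 fold change of the 91 was -0.03, against -0.01 for all genes.

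*TBL1X*, the paralog of *TBL1XR1* in the same corepressor complex, was called in comparisons where *TBL1XR1* was not. It had 133, 158 and 136 CPM with vehicle and 198, 217 and 193 with RGZ, without overlap. It was 113, 130 and 104 CPM with T0070907 and 120, 158 and 131 in the combination. With the block it rose by 0.51 with RGZ (SE 0.06, adjusted p = 1.3e-05, edgeR; adjusted p = 0.0541 without the block) and fell by 0.30 with T0070907 (adjusted p = 0.0194). It was the only gene of the 5 lists called for T0070907 alone by edgeR with the block, 1 of 91 against 0.91% of all tested genes. In the combination it fell by 0.58 against RGZ (adjusted p = 4.48e-06) and rose by 0.24 against T0070907 (adjusted p = 0.0251). These comparisons share the libraries of the single compounds with those against vehicle. Whether *TBL1X* and *TBL1XR1* differ in their response was not tested.

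Among the other corepressors, *CORO2A*, *HDAC5* and *HDAC7* fell with RGZ in the blocked fit, by 0.52, 0.32 and 0.22 on the log2 scale. All 3 rose in the combination against RGZ, by 0.39, 0.45 and 0.24. Both comparisons use the same RGZ libraries, so these rises are not independent of the falls. None of the 3 was called in either comparison without the block. In the combination against RGZ, *CTBP1* also rose (0.21) and *SIN3B* fell (-0.29). In the combination against T0070907, *CORO2A* fell by 0.41 (adjusted p = 0.0255 with the block, edgeR) and *SIN3A* by 0.22 (adjusted p = 0.0404).

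Among histone-modifying and other coactivators, 3 of 23 were called with RGZ with the block. *KAT2B* had 22, 23 and 23.5 CPM with vehicle and 16.4, 15.2 and 14.9 with RGZ, and fell by 0.56 (SE 0.11, adjusted p = 0.0344 without the block and 0.00123 with it, edgeR). *CITED2*, a partner of the acetyltransferases CBP and p300, rose by 0.73 (adjusted p = 1.94e-05 with the block and 0.553 without it) and *NCOA7* by 0.44 (adjusted p = 0.00436 with the block). In the combination against RGZ, which shares the RGZ libraries, *CITED2* and *NCOA7* fell by 0.75 and 0.66 and *KAT2B* rose by 0.40. *EP300* and *PPRC1*, the remaining PGC-1 family member, fell there by 0.32 and 0.22. In the combination against T0070907, 6 of 23 coactivators fell with the block, with *EP300* at -0.52 (adjusted p = 0.00459), *KMT2D* at -0.36, *NCOA6* and *HELZ2* at -0.35, *KAT2B* at -0.31 (adjusted p = 0.048) and *CREBBP* at -0.29. All of these but *KAT2B* were in the longest class of transcript length, where 13.3% of genes were called lower, and of the 6 the length-corrected blocked fit called *EP300* alone.

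Of the 32 other Mediator subunits, *MED10* (0.41, adjusted p = 0.0076) and *MED8* (0.23, adjusted p = 0.0474) rose with RGZ in the blocked fit, none was called in the combination against RGZ, and *MED13L* and *CDK19*, both at -0.46, were called against T0070907. Of 12 SWI/SNF subunits, 0 were called with RGZ in either edgeR fit, *SMARCD3* was higher in the combination than with RGZ (0.34), and *ARID1A* was lower than with T0070907 (-0.32). Among 8 tested PGC-1 partners and targets, *ESRRA* had 65.3, 66.6 and 69.4 CPM with vehicle and 82.4, 96.5 and 87.7 with RGZ, and rose by 0.40 (SE 0.07, adjusted p = 0.0235 without the block, edgeR). It fell by 0.37 in the combination against RGZ (adjusted p = 0.0367 without the block), a comparison that shares the RGZ libraries. *TFB2M*, a mitochondrial transcription factor, rose by 0.21 with RGZ and by 0.19 in the combination against T0070907 (adjusted p = 0.0431), both in the blocked fit.

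**Figure D5:**
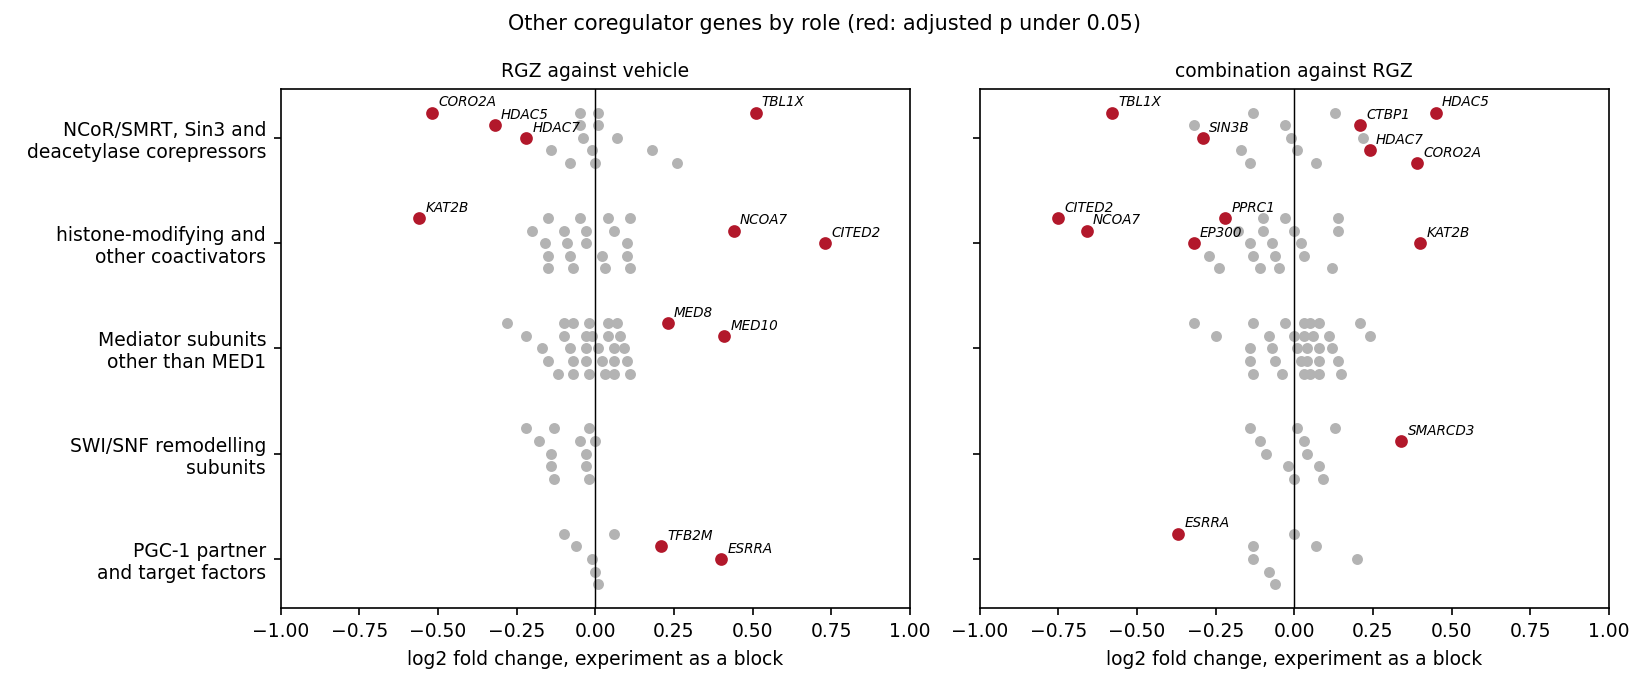
Log2 fold changes of 91 other coregulator genes, grouped by role on the vertical axis (spread within a group only for legibility), from the edgeR fit with the experiment as a block. Red points are called and named, 11 for RGZ against vehicle and 13 for the combination against RGZ. *TBL1X*, *CITED2*, *NCOA7* and *ESRRA* lie to the right in the first panel and to the left in the second, and both panels share the RGZ libraries.

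For the combination against RGZ, 13 of the 91 genes were called with the block (6 higher, 7 lower) and 3 without it (*TBL1X*, *NCOA7* and *ESRRA*), with a blocked median of 0 against 0.01 for all genes. Over all tested genes 11.4% were called with the block and 1.24% without it. Leaving out 1 library from the unblocked fit left between 0 and 2 of these 3. For the combination against T0070907, 13 were called with the block (2 higher, 11 lower) and 0 without it by edgeR, while DESeq2 called 2. Over all tested genes 8.76% were called with the block and 0.037% without it. The length-corrected blocked fit called 7 of the 91, of which *EP300*, *MED13L* and *TBL1X* were among the 13. None was called for the combination against vehicle or for the interaction in either edgeR fit.

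Some counts may include reads of neighbouring or related genes, because the counting of strand was not given in the sources used here. Exons of *NCOR1* share 321 bases with *PIGL* on the opposite strand and those of *NCOA3* share 96 bases with *SULF2*. *PIGL* and *SULF2* were not called in the 6 comparisons. *NCOR1* also has pseudogene copies, and *TBL1XR1* has near relatives in *TBL1X* and *TBL1Y*, so the division of reads between them is uncertain. *HDAC3*, *NCOR1* and *TBL1XR1* overlap annotated antisense RNAs over 426, 188 and 181 exon bases.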

How the data were processed

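RNA-seq libraries (TruSeq, Illumina) of A375 cells in 4 conditions were analysed, 12 in all. The authors deposited raw read counts per gene, listed by NCBI gene number and not normalized. The submitters' processing notes name build hg19, and the aligner, annotation and strand setting are not given in the sources used here. The table held 0 columns of other samples. RefSeq gave a symbol to 23538 of 23705 genes. Transcript length and GC content came from GENCODE release 29 on GRCh38 (longest transcript) and were known for 98.4% of tested genes.

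The tests used edgeR 4.0.16 in R 4.3.3 (TMM, filterByExpr, quasi-likelihood test on all 12 libraries, 4 groups) and DESeq2 1.42.0. Adjusted p-values of the main edgeR fits are Benjamini-Hochberg over all 13522 tested genes, and the threshold was 0.05 throughout. The fits corrected for length or GC adjusted over the 13305 tested genes with a known length. Fits with another filter or with libraries left out adjusted over the genes that passed their own filter. DESeq2 gave some genes no adjusted p, and these could not be called by it. The SE is the log2 fold change divided by the square root of F. The design text gives 3 independent experiments with every condition in each, and the numbers in the titles were read as these experiments. Deviations from the condition means correlated by 0.554 on average between libraries with the same number, from 0.0793 to 0.758 over 18 pairs, so every test was repeated with the experiment as a block. P-values without the block rest on the spread between the libraries of a condition. Those with the block rest on the spread left once differences between the 3 experiments are taken out. All libraries are of 1 line.

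The members, the lists and the tests were chosen with earlier results of these data known. Named were all members, list genes with the smallest p among those called (all called genes of a list where 5 or fewer were called, chosen after their values were seen), the 2 genes most correlated with each member, and marker and treatment genes. Length and GC corrections subtracted a loess curve with a span of 0.3 from each library. The tests were tested on simulated data first. Depth limits *PPARGC1A* most, and floors and intervals cover counting error or spread between libraries only. Values of some single genes of the lists are not reported here.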

Additional observations from a re-analysis of the deposited data

How the results depend on the processing

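The numbers of called genes changed with the replicate block and with the experiment left out, while another size factor method or count filter left 0 members called in every comparison, as without it. The values below are for RGZ against vehicle, T0070907 against vehicle, the combination against vehicle, against RGZ and against T0070907, and the interaction, in this order. With the replicate block, edgeR called 0, 0, 0, 3, 3 and 0 members and 11, 1, 0, 13, 13 and 0 of the other coregulators, among 1258, 123, 0, 1545, 1185 and 38 genes in all. DESeq2 with the block called 0, 0, 1, 3, 3 and 0 members and 9, 1, 4, 9, 9 and 0 others, among 900, 112, 161, 1071, 879 and 47 genes. DESeq2 without it called 0 members and 4, 0, 0, 3, 2 and 0 others, among 302, 21, 0, 313, 87 and 1. In both DESeq2 fits some members had no adjusted p in some comparisons and could not be called there. A fit of only the groups compared, which the interaction does not allow, called 0 members and 0 others. The following were chosen after seeing the data. The block with a transcript length correction called 1, 0, 0, 3, 1 and 0 members and 12, 1, 0, 18, 7 and 1 others, among 1646, 237, 7, 1953, 1006 and 107 genes. With a GC correction it called 0, 0, 0, 3, 3 and 0 members and 11, 1, 0, 16, 20 and 0 others, among 1513, 156, 0, 1784, 1860 and 57. The block without the combination library of experiment 1 called 1, 0, 0, 3, 1 and 0 members and 16, 2, 0, 9, 6 and 1 others, among 2044, 329, 7, 1250, 641 and 105. The causes were not tested. Leaving out 1 library from the unblocked fit gave 0 members, and 0 to 1 other coregulator for RGZ against vehicle and 0 to 2 for the combination against RGZ. Leaving out 1 experiment from the blocked fit gave 0 to 4 members for the combination against vehicle, 0 to 4 against RGZ and 0 to 5 against T0070907, with 8 libraries left. Over all genes these fits called 0 to 2641 for the combination against vehicle, 513 to 2226 against RGZ and 18 to 2206 against T0070907. Members called for the experiment numbered 1 to 3 when 1 library was left out.

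Signs turned in differences that were not called. With the length correction and the block, *HDAC3* had -0.01 and *TBL1XR1* 0.11 for the combination against vehicle, where *NCOA1* had 0. Against RGZ, *HDAC3* had -0.05 and *TBL1XR1* 0.02, and against T0070907 *PPARGC1B* had 0.06. With the GC correction, *TBL1XR1* had 0.04 for the combination against vehicle and -0.01 for the interaction, and *HDAC3* 0.01 against T0070907. Without the combination library of experiment 1, *NCOA1* had 0.01 against vehicle and 0 against RGZ, *HDAC3* -0.03 against RGZ, and *NCOA2* 0.23 against RGZ and 0.18 for the interaction. *HDAC3* had 0 against T0070907 with DESeq2 size factors and with DESeq2. Leaving out 1 library turned the sign at least once for RGZ against vehicle in *NCOR1* (-0.02 to 0.12), *TBL1XR1* (-0.01 to 0.04), *NCOA1* (-0.07 to 0.07) and *PPARGC1A* (-0.52 to 0.18). For T0070907 against vehicle it did so in *NCOR1* (-0.11 to 0.05), *NCOA2* (-0.07 to 0.13), *PPARGC1A* (-0.01 to 0.69), *PPARGC1B* (-0.21 to 0.07) and *MED1* (-0.14 to 0.08). For the combination it did so in *PPARGC1B* against vehicle (-0.36 to 0), *HDAC3* (-0.02 to 0.07) and *NCOA2* (-0.30 to 0.19) against RGZ, and *HDAC3* (-0.04 to 0.04), *TBL1XR1* (0 to 0.07) and *PPARGC1B* (-0.28 to 0.09) against T0070907. For the interaction it did so in *TBL1XR1* (-0.01 to 0.06) and *NCOA2* (-0.35 to 0.15).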

Other observations

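The trend with transcript length differed between single libraries. Relative to the mean of all libraries, the slope of the log2 level per doubling of length over all tested genes was steepest in the combination library of experiment 1, at -0.0973, and in the vehicle library of experiment 1, at 0.0712. The combination libraries of experiments 2 and 3 had slopes of -0.00719 and -0.057, and the remaining libraries lay between -0.038 and 0.0649. In the combination library of experiment 1, the median log2 deviation from the mean of all libraries was -0.167 in the longest length class and 0.176 in the shortest. Of the 9 members, *NCOR1*, *NCOA1*, *NCOA2*, *NCOA3*, *PPARGC1A* and *MED1* had their lowest level of all 12 libraries in that library. *HDAC3* had its highest there, at 120 CPM. The share of all tested genes with their lowest level there was not counted, so the members cannot be set against it. Whether these levels were set by the library or by the treatment in that experiment was not tested.

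The 8 member promoters in RefSeq differed in base composition. The 300-base window of *NCOA1* had a GC content of 85.7% with 55 CG pairs and 10 matches to the GC box GGGCGG on either strand, while that of *PPARGC1B* had 46% with 3 CG pairs and no match. The median GC content over all promoters was 58.7%, and 45% of them held the GC box.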
